A study of Mus musculus with 12 samples.

Results

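The genes described here encode the hypoxia-inducible factors, the enzymes that mark them for breakdown and 3 of their best-known targets, measured in mouse heart. They are the factor subunits *Hif1a*, *Epas1* and *Arnt*, the oxygen sensors *Egln1*, *Egln2* and *Egln3*, the ubiquitin ligase adaptor *Vhl*, and the targets *Vegfa*, *Adm* and *Ankrd37*. Members were chosen by gene symbol, as every non-control array probe whose annotated gene name equals a listed symbol. This gave 18 probes for 10 genes, of 56605 probes for 37074 gene names on the array. All 18 were among the 30859 probes tested, a probe being tested if at least 50% of arrays in each group gave it a positive and significant signal.

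Messenger RNA of heart muscle was profiled on single-colour arrays in 12 mice, all male C57BL6/J and labelled as 5 months old, with 3 in each of 4 groups. Control mice (C) received no streptozotocin and no pargyline. Diabetic mice (D) had been injected intraperitoneally on 5 days with streptozotocin, which kills pancreatic β cells, in citrate buffer and at a daily dose of 50 mg/kg. Control mice with pargyline (C + P) and diabetic mice with pargyline (D + P) received this inhibitor of monoamine oxidase, a mitochondrial enzyme that gives off hydrogen peroxide, over 12 weeks, likewise at 50 mg/kg daily. The mice entered the study at 6 to 7 weeks of age and counted as diabetic at a blood glucose of 17 mM or more, so the model is one of toxin-induced insulin loss, and whole muscle was measured rather than one cell type. Values below are log2 of the signal after quantile normalization between arrays, changes are differences of group means on that scale, and adjusted p-values are from limma over all tested probes of a comparison.

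Hypoxia-inducible factors are transcription factors made of an oxygen-labile alpha subunit and a stable beta subunit. In the presence of oxygen the EGLN prolyl hydroxylases modify the alpha subunit, the VHL protein binds the modified form, and a ubiquitin ligase sends it to the proteasome. When oxygen is short the alpha subunit persists, pairs with ARNT and activates genes of vessel growth, glycolysis and mitochondrial turnover. Because the alpha subunits are controlled largely as proteins, a messenger RNA level does not report the activity of the factor.

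The 12 arrays had between 23556 and 29231 of 59305 non-control spots well above background and 0 saturated spots. C and D lay on one slide and scan, and C + P and D + P on another, so that pargyline cannot be told apart from slide and scan wherever treated and untreated groups are compared. On each slide the non-diabetic arrays lay in one row and the diabetic arrays in the other, so that row and diabetes cannot be told apart either. All 6 cardiomyocyte markers were well above background on all arrays. Of the 3 skeletal muscle markers, *Tnnt3* was so on 11 arrays, *Myh4* on 4 and *Myh1* on 0. Of the 3 adipocyte markers, *Cfd* was so on 5 arrays and *Adipoq* and *Plin1* on 0, and of the 3 atrial markers, *Myl4* on 12, *Myl7* on 4 and *Sln* on 0.

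Probes of *Hif1a* and *Vegfa* are shown because each gene was read by several, whose values are described one by one. The files place probes on mm9, for which no annotation of exons was used here. The brightest *Hif1a* probe, A_55_P2936147, is assigned in the files to the reference messenger RNA and lies at chr12:75047819-75047878, on the strand of the gene. A_66_P107191 is assigned to a cDNA clone and lies at chr12:75027538-75027597. Its coordinates run against the strand of *Hif1a*, whereas coordinate order equalled the RefSeq strand of the gene for 22475 of 22569 probes assigned to reference messenger RNAs (99.6%) and for 2120 of 2248 assigned to cDNA clones (94.3%). A_55_P2149011 is assigned to another cDNA clone, at chr12:75033965-75034024, on the strand of the gene. Probes for both strands of this locus thus carry the same gene name on the array. The sequences below are given 5′ to 3′, the first 30 bases of the 2 probes on the strand of the gene and all 60 of the probe on the opposite strand, with no base marked.
A_55_P2936147: tgggtctaacactaactgtactgttttgtt
A_55_P2149011: cctaatctgttactacttgtgtgtaattgt
A_66_P107191: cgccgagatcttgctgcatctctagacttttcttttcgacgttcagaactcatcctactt

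The 4 *Vegfa* probes lie on the reverse strand of chromosome 17, as the gene does. They include A_55_P2741794 (chr17:46159226-46159282, a span of 57 for a probe of 60 bases), A_51_P482552 (chr17:46155512-46155571) and A_52_P638895 (chr17:46154387-46154446), in order from the 5′ to the 3′ side of the gene, and A_52_P249424, for which values alone are given. The first is printed whole, with no base marked, as its values differed least between C and D. Which splice forms of the transcript each probe reads was not checked.
A_55_P2741794: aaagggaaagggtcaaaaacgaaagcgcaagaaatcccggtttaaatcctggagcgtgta

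ACGTG, a form of the core of the hypoxia response element that the factors bind, was searched on both strands. The search covered RefSeq windows from 250 bases before to 50 after each gene start (GRCm38.p6). No other form of this DNA word was searched, so a window without a match may hold one. Windows were given for 9 of the 10 members, with a second start for *Egln2* and *Vegfa*. The word was found in 6 of these 11 windows, in *Hif1a*, *Egln1*, *Egln2*, *Egln3*, *Ankrd37* and *Vegfa*, beside 19.6% of the 32851 windows in the table. A match is a run of letters, not a site shown to be bound. Stretches of 30 bases from the genes for the factor, its main sensor and a target are shown with the word in capitals, read on the strand of the gene. They lie at chr12:73907785-73907814 on the forward strand, and at chr8:124949305-124949334 and chr8:46000071-46000100 on the reverse strand. *Hif1a* had 2 more matches, which overlap each other as the palindrome CACGTG, and *Ankrd37* had 1 more.
Hif1a: tggctgagagcaACGTGggctggggtgggg
Egln1: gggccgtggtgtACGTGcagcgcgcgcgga
Ankrd37: cccagcagtACGTGcctagctcggctcgca

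Whether diabetes or pargyline shifted these genes was asked with 6 comparisons, and 0 of 18 member probes passed an adjusted p of 0.05 in any of them with limma. In D against C, 0.00648% of all tested probes passed. At an unadjusted p under 0.05 there were 4 member probes beside 10.8% of all probes, and the arrays of both groups did not overlap at 4 member probes beside 22.2% of all. In D + P against C + P the share called was 0.0454% of all probes, 4 member probes had an unadjusted p under 0.05 beside 7.46%, and 4 did not overlap beside 13.9%. Averaged over pargyline, diabetes gave 0.107% of all probes called and 5 member probes at an unadjusted p under 0.05 beside 11.4%. The 4 of 18 in D against C that did not overlap are the same share as the background. Of these 4, 1 was a *Hif1a* probe that was not well above background on any array of either group. Whether any of these shares differs from its background was not tested.

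In C + P against C, 0.0324% of all probes passed, 3 member probes had an unadjusted p under 0.05 beside 4.43%, and 3 did not overlap beside 15.3%. In D + P against D, 0% of all probes passed, 6 member probes had an unadjusted p under 0.05 beside 13.3%, and 4 did not overlap beside 17%. For the interaction, the change with diabetes under pargyline minus that without it, 0.00648% of all probes passed and 3 member probes had an unadjusted p under 0.05 beside 7.03%. The median change of the 18 probes was −0.13 for diabetes without pargyline, 0.09 with it and −0.03 averaged. Over all tested probes these medians were −0.01, 0.007 and −0.009. For pargyline the median was 0.09 among non-diabetic and 0.27 among diabetic mice, and 0.15 for the interaction, beside −0.007, −0.0008 and −0.004. Probes of 1 gene are not independent: *Vegfa* gave 4 of the 18 and *Arnt* 3, all higher in D + P than in D.

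*Hif1a*, the alpha subunit of the first factor, was highest in diabetic hearts without pargyline at its brightest probe, while the opposite-strand probe was highest in D + P. The brightest probe read 9.79, 9.90 and 9.89 in C, 10.51, 9.95 and 9.81 in C + P, 11.33, 11.04 and 10.60 in D, and 10.27, 10.64 and 10.04 in D + P. All D arrays stood above all C and all C + P arrays, while 1 D + P array reached into the range of D. The group means were 9.86 ± 0.06, 10.09 ± 0.37, 10.99 ± 0.36 and 10.32 ± 0.30 in that order (SD, n = 3). D exceeded C by 1.13 (SE 0.24, 95% interval 0.59 to 1.67), a fold of 2.19, with an adjusted p of 0.237 from limma. Under pargyline the difference was 0.22 (SE 0.24, adjusted p = 0.856), or 0.06 without D + P replicate 2 and 0.43 without C + P replicate 1. The average of the differences without and with pargyline was 0.68 (SE 0.17, adjusted p = 0.203).

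The interaction at this probe was −0.91 (SE 0.35, adjusted p = 0.688), and D + P lay below D by a log2 change of −0.67 (SE 0.24, adjusted p = 0.287). The order of the means was D, D + P, C + P and C, and each neighbouring pair of groups overlapped. With array weights, which count noisier arrays less and under which 279 and 348 of all tested probes passed, the probe passed in D against C (log2 change 1.09) and in diabetes averaged over pargyline (0.76). Over the settings fitted with limma to all arrays or to the compared groups, its adjusted p ran from 0.0323 to 0.547 for the former and from 0.0254 to 0.399 for the latter, and without single arrays up to 0.715 and 0.417. Leaving out any single array kept the D against C difference between 0.96 and 1.32. The D arrays had 23556, 28774 and 24666 spots well above background, against 28472 to 29231 in C, and the part of this in the *Hif1a* difference was not tested.

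The probe on the opposite strand of the *Hif1a* locus had another pattern. It read 5.97, 5.92 and 5.44 in C, 4.82, 5.65 and 5.87 in C + P, 4.96, 5.91 and 5.18 in D, and 6.09, 6.10 and 6.33 in D + P, and it was well above background on 9 of 12 arrays. All D + P arrays stood above all arrays of the other groups, whose ranges overlapped. D differed from C by −0.43 (SE 0.31, adjusted p = 0.615) and D + P from C + P by 0.73 (SE 0.31, adjusted p = 0.649). The D against C value was −0.23 without D replicate 1, −0.71 without D replicate 2 and −0.11 with array weights, and the D + P against C + P value was 0.41 without C + P replicate 1. The interaction was 1.16 (SE 0.44, adjusted p = 0.684), opposite in sign to that of the brightest probe. D + P exceeded D by 0.82 (SE 0.31, adjusted p = 0.298).

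The dim *Hif1a* probe, A_55_P2149011, was well above background on 2 of the 3 D + P arrays and on 0 of the 9 other arrays, so no fold is given for D against C. Its measured values were 4.83, 4.77 and 4.25 in C, 4.82, 4.54 and 5.16 in C + P, 4.92, 5.09 and 5.76 in D, and 4.88, 5.45 and 5.87 in D + P. The measured mean of D + P exceeded that of C + P by 0.56 (SE 0.31, 95% interval −0.12 to 1.24, adjusted p = 0.714 from limma). The ranges overlapped, and no fold is given here either, as 2 D + P arrays and 0 C + P arrays were well above background.

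**Figure D1:**
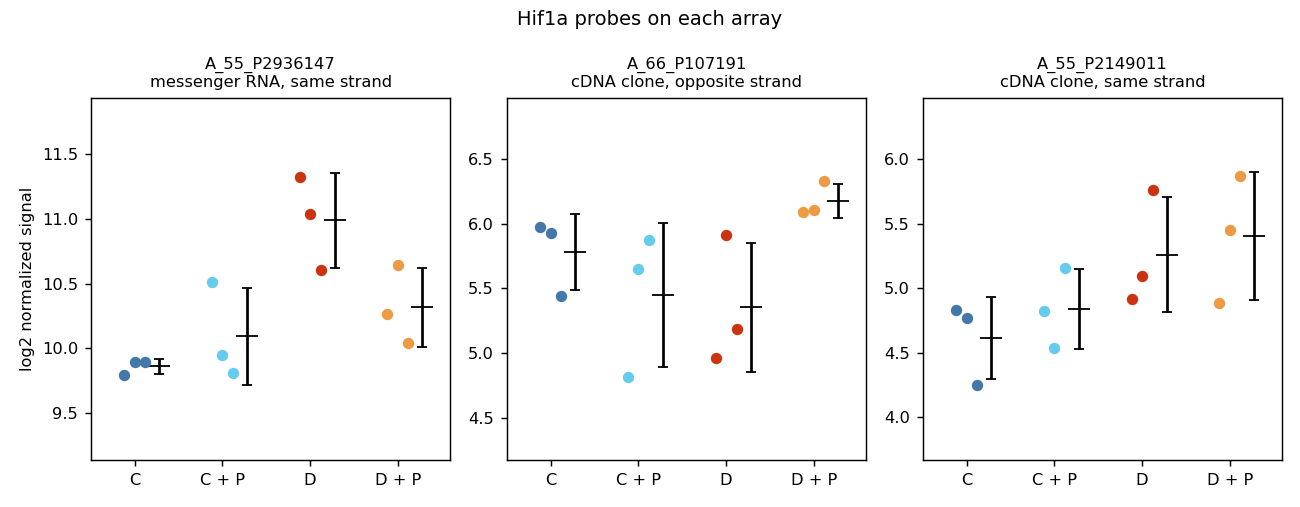
Log2 normalized signal of the 3 *Hif1a* probes on each of the 12 arrays, by group, with the group mean and SD in black beside the points. The panels share a scale length but not a level. All D arrays lie above all C arrays at the brightest probe, and all D + P arrays lie above the other 9 at the probe of the opposite strand.

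Disagreement between the *Hif1a* probes was tested on the difference between the brightest and the opposite-strand probe within an array. This difference shifted by 1.56 from C to D and by −0.50 from C + P to D + P. The average was 0.53, with a two-sided p of 0.31 in an exact permutation test (0.62 after adjustment over 2 probe pairs). Arrays were exchanged within each pargyline state, which gave 400 arrangements in all and a smallest possible p of 0.005. The averaged test did not separate these 2 probes, and the shifts with and without pargyline had opposite signs. The second pair, with the dim probe, had an averaged value of 0.07, from which nothing is read, as that probe was not well above background on any C, C + P or D array. Over the 12 arrays, which share 4 groups and 2 slides, the brightest probe correlated with the opposite-strand probe at r = −0.44.

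Among 14939 other genes, the brightest *Hif1a* probe was most like *Tpt1* (Pearson r = 0.92 over 12 arrays), *Gata6* (0.92) and *Gabrr1* (0.91). The opposite-strand probe was most like *C030034I22Rik* (0.95), *Appl2* (0.94) and *Srsf2* (0.93). The dim probe, well above background on only 2 of 12 arrays, was most like *Tlcd1* (0.88), *Itih2* (0.88) and *Sulf2* (0.86). These are descriptions of the highest of many correlations, and the 3 *Hif1a* probes had no gene in common among them.

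*Epas1*, which encodes the alpha subunit HIF-2α known from endothelium, was nearly level across groups. Its probe (chr17:87232615-87232674) ranged from 13.80 to 14.47 with a median of 14.27 over the 12 arrays. D differed from C by −0.09 (95% interval −0.51 to 0.32) and D + P from C + P by 0.11 (−0.31 to 0.52), with adjusted p-values of 0.876 and 0.917. Every neighbouring pair of groups in the order of means overlapped.

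*Arnt*, the beta subunit with which both alpha subunits pair, was read by 3 probes. The brightest (chr3:95301081-95301140) had the narrowest range of all 18 member probes, 0.354, from 9.72 to 10.07. Its D against C difference was 0.01 (95% interval −0.30 to 0.31). A_55_P2814820 read 6.84, 6.83 and 6.42 in C, 6.50, 7.06 and 6.90 in C + P, 6.45, 6.31 and 5.21 in D, and 6.62, 7.05 and 7.33 in D + P. All D + P arrays stood above all D arrays there, by 1.01 between the means (SE 0.32, adjusted p = 0.248), or 0.62 without D replicate 3. The third probe, A_55_P2735190, spread over 2.93 log2 units, with 9 of 12 arrays well above background, and its D arrays alone read 7.25, 5.84 and 4.32. A level brightest probe therefore stood beside 2 dimmer ones that varied by more than 2 log2 units.

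The sensors are given one by one, as no test compared them. *Egln1*, the prolyl hydroxylase PHD2 that does most of the marking of HIF-1α, read 14.47, 14.54 and 14.42 in C, 14.61, 14.42 and 14.21 in C + P, 14.62, 14.58 and 14.51 in D, and 13.99, 14.31 and 14.57 in D + P. The groups overlapped, and D differed from C by 0.09 (95% interval −0.29 to 0.48). *Egln2* (PHD1) had a brighter probe at which D differed from C by −0.26 (95% interval −0.60 to 0.07, adjusted p = 0.536) and a dimmer one at which it differed by −0.14 (−0.64 to 0.37), with overlapping groups at both. The averaged change of the brighter probe was −0.19. At the dimmer one the D against C value turned to 0.09 without D replicate 1 and was −0.32 without D replicate 3.

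*Egln3*, the prolyl hydroxylase PHD3 and itself a hypoxia target, had the largest interaction in size among the 18 probes. Its probe (chr12:55280953-55281012) read 8.55, 8.89 and 8.41 in C, 9.54, 9.08 and 8.87 in C + P, 9.43, 8.92 and 9.06 in D, and 8.20, 8.50 and 8.59 in D + P. All D arrays stood above all C arrays, all D + P arrays stood below all C + P arrays, and all D + P arrays stood below all D arrays. D exceeded C by 0.52 (SE 0.22, adjusted p = 0.45), a fold of 1.43. Under pargyline the difference was −0.73 (SE 0.22, adjusted p = 0.469). The interaction was −1.25 (SE 0.32, 95% interval −1.95 to −0.55, adjusted p = 0.565). C + P exceeded C by 0.54 (SE 0.22, adjusted p = 0.9998) or by 0.36 without C + P replicate 1, with overlapping ranges, and D + P differed from D by −0.71 (SE 0.22, adjusted p = 0.243).

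*Vhl*, the substrate adaptor of the ubiquitin ligase, ranged from 7.13 to 9.26 with a median of 8.78. The mean was highest in D at 8.95, followed by C + P at 8.65, C at 8.60 and D + P at 8.06, with the widest spread in C (SD 0.67) and D + P (SD 0.86). This order rested on single arrays, as the D against C difference of 0.35 turned to −0.04 without C replicate 1. D + P differed from D by −0.89 (SE 0.43, adjusted p = 0.396) but by −0.43 without D + P replicate 3, and the ranges overlapped.

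**Figure D2:**
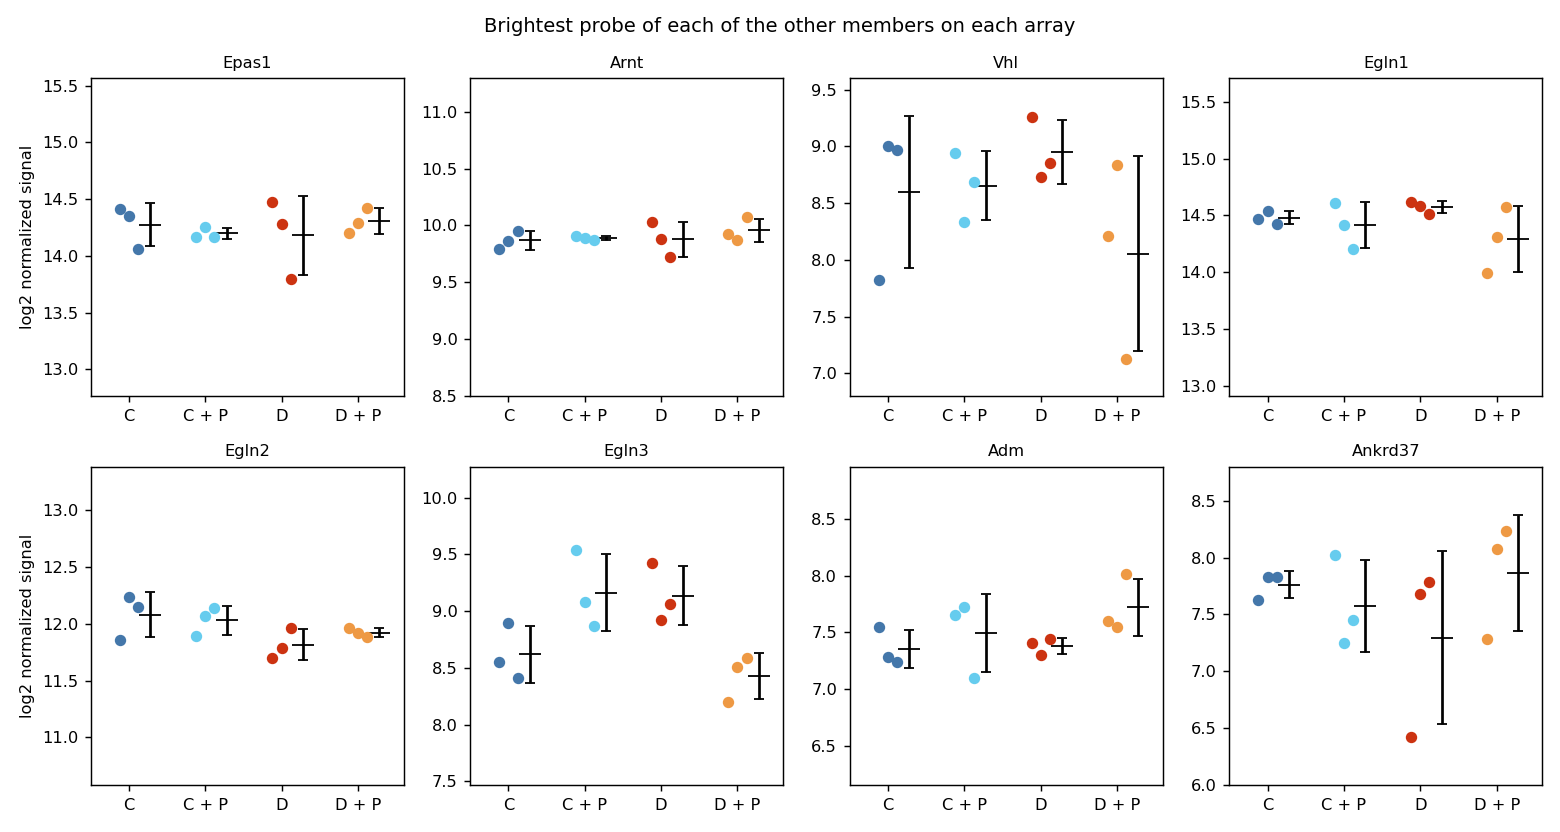
Log2 normalized signal of the brightest probe of each of the 8 members other than *Hif1a* and *Vegfa* on each array, by group, with the group mean and SD in black beside the points. The panels share a scale length but not a level. *Egln3* has higher means in C + P and D than in C and D + P, while *Arnt* and *Epas1* differ little between groups.

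*Vegfa*, the main growth factor of vessel endothelium, was lower in D than in C at 4 of 4 probes and higher in C + P than in C at 4 of 4. The brightest probe, A_52_P638895, read 11.60, 11.40 and 11.12 in C, 11.66, 11.67 and 11.93 in C + P, 10.41, 11.16 and 10.48 in D, and 10.86, 11.60 and 11.72 in D + P. D differed from C by −0.69 (SE 0.27, 95% interval −1.29 to −0.09), a fold of 0.62, with an adjusted p of 0.422. The averaged change was −0.53 (SE 0.19, adjusted p = 0.352), or −0.34 with array weights. One D array reached the lowest C array, and all C + P arrays stood above all C arrays.

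The next brightest probe, A_52_P249424, read 10.73, 10.55 and 10.47 in C, 11.22, 11.02 and 11.13 in C + P, 9.82, 10.28 and 10.40 in D, and 10.82, 10.63 and 10.39 in D + P. Here all D arrays stood below all C arrays and all D + P arrays below all C + P arrays. D differed from C by −0.42 (SE 0.19, adjusted p = 0.462), D + P from C + P by −0.51 (SE 0.19, adjusted p = 0.591), and the average was −0.46 (SE 0.13, 95% interval −0.75 to −0.17, adjusted p = 0.246). Without D replicate 1 the D against C value was −0.24.

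A_51_P482552 read 9.93, 9.68 and 9.23 in D. It gave −0.45 (SE 0.21) in D against C, or −0.25 without D replicate 3, and −0.54 (SE 0.21) in D + P against C + P, with an average of −0.49 (SE 0.15, adjusted p = 0.256). Its C + P arrays read 10.47, 10.62 and 10.65, all above the C arrays at 10.21, 10.05 and 9.92. The means of these 2 probes and of the brightest were thus lower with diabetes in both pargyline states, and stayed lower without any single array, the brightest by as little as −0.10 in D + P against C + P without D + P replicate 1.

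A_55_P2741794, the dimmest of the 4, had smaller differences between diabetic and non-diabetic means. It read 8.44, 8.79 and 8.94 in C, 8.86, 8.59 and 9.34 in C + P, 8.49, 8.82 and 8.53 in D, and 9.38, 8.95 and 8.58 in D + P. All neighbouring groups overlapped. Averaged over pargyline, diabetes gave −0.04 (95% interval −0.43 to 0.36), whereas the other 3 probes had averages of −0.46 to −0.53. Whether the probes differ from each other was not tested. Over 12 arrays it correlated with the other probes at r = 0.20, 0.47 and 0.34 from the brightest down, and these 3 correlated with each other at 0.65 to 0.70.

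Pargyline went with higher *Vegfa* at all 4 probes without and with diabetes, by 0.21 to 0.54 among non-diabetic and by 0.35 to 0.71 among diabetic mice, on arrays of different slides. The smallest of these, at A_55_P2741794, fell to 0.002 without C + P replicate 3 and to 0.15 without D + P replicate 1. At A_51_P482552, D + P against D fell from 0.43 to 0.24 without D replicate 3. At the brightest probe the D + P mean, 11.39, lay 0.02 above the C mean. For the interaction the 4 probes gave 0.33, −0.09, −0.09 and 0.15 with SEs of 0.26 to 0.38, and none of them passed. The genes most like the brightest *Vegfa* probe were *Osmr* (r = 0.94 over 12 arrays), *Cabin1* (0.93) and *Rbm12b1* (0.92).

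**Figure D3:**
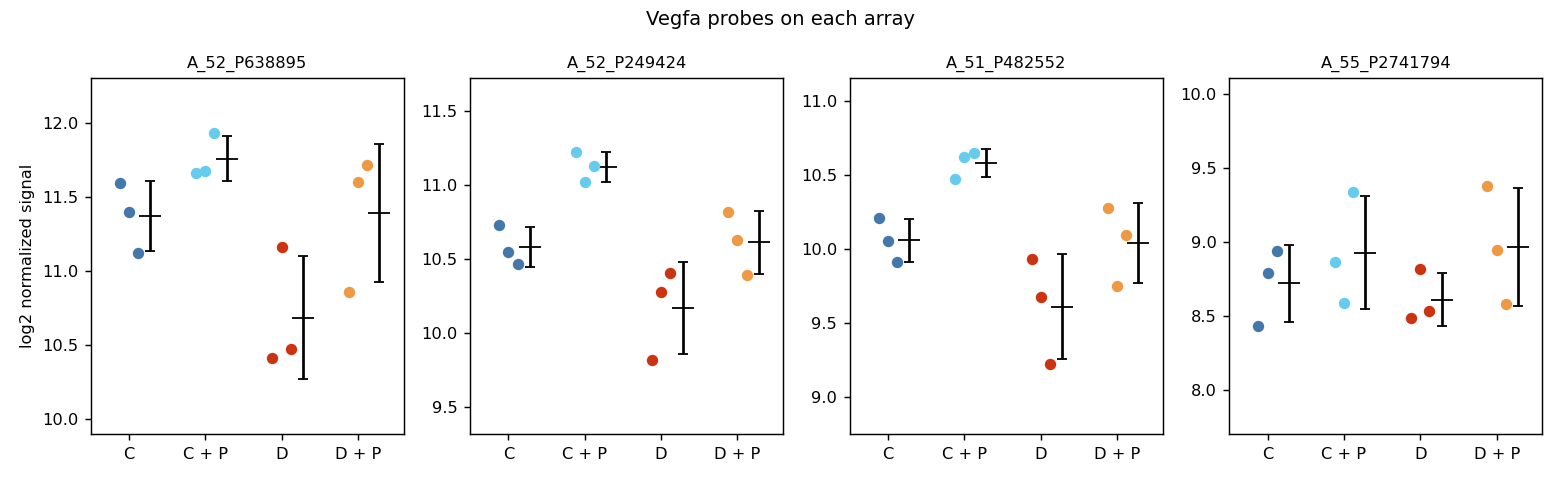
Log2 normalized signal of the 4 *Vegfa* probes on each array, by group, with the group mean and SD in black beside the points, from the brightest probe on the left to the dimmest on the right. The panels share a scale length but not a level. D is the lowest group at each of the 4 probes, by 0.11 below C at the rightmost one.

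*Adm* encodes adrenomedullin, a vasodilator peptide. Its probe read 7.54, 7.28 and 7.24 in C, 7.65, 7.73 and 7.10 in C + P, 7.41, 7.30 and 7.44 in D, and 7.60, 7.55 and 8.01 in D + P. All D + P arrays stood above all D arrays, by 0.34 between the means (SE 0.20, adjusted p = 0.476) or 0.19 without D + P replicate 3, and D differed from C by 0.03 (95% interval −0.42 to 0.47), with an averaged change of 0.13. It was most like *Ctnnd1* (r = 0.90), *Hs3st3b1* (0.90) and *Serpinb6a* (0.89).

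*Ankrd37*, an ankyrin repeat gene known as a direct target of the first factor, read 7.63, 7.83 and 7.83 in C, 8.03, 7.25 and 7.45 in C + P, 6.42, 7.68 and 7.78 in D, and 7.28, 8.08 and 8.24 in D + P. One D array stood well below the other D arrays. D differed from C by −0.47 (SE 0.38, 95% interval −1.30 to 0.36, adjusted p = 0.65) and D + P from C + P by 0.29 (SE 0.38, adjusted p = 0.883). Without D replicate 1 the D against C value was −0.03, and the averaged change of −0.09 turned to 0.13. The D + P against C + P value was 0.10 without D + P replicate 3 and 0.58 without D + P replicate 1.

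**Figure D4:**
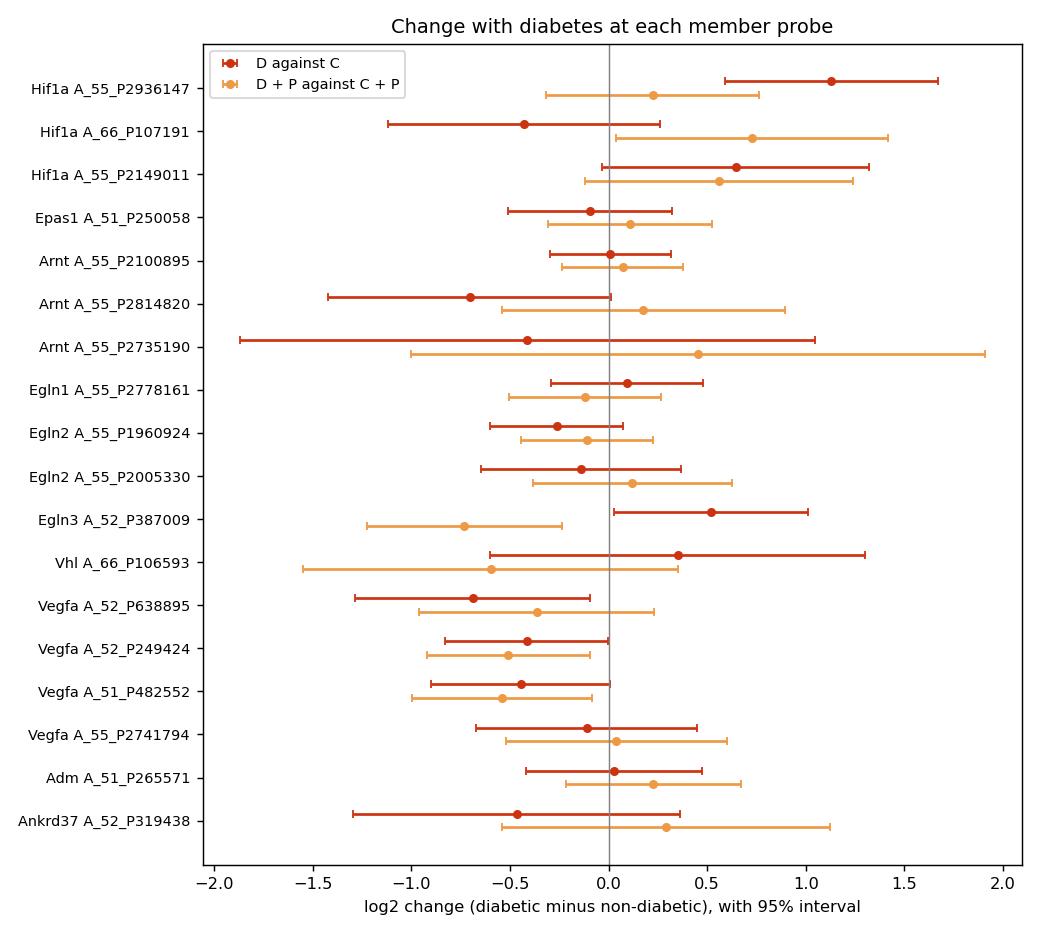
Log2 change with diabetes and its 95% interval for each of the 18 member probes, in D against C (red) and in D + P against C + P (orange). The interval lies above 0 for the brightest *Hif1a* probe and *Egln3* without pargyline and for the opposite-strand *Hif1a* probe with it, and below 0 for *Egln3* with pargyline and for 2 *Vegfa* probes in each state.

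The wider pathway was read with 54 other genes in 5 lists, of which 52 had a tested probe, *Arnt2* and *Car12* having none. For diabetes averaged over pargyline, 0 of 52 passed, 8 were higher and 1 lower at an unadjusted p under 0.05, and the median change was 0.003, beside −0.009 over all tested probes. No list gene passed in any of the other 5 comparisons either. At an unadjusted p under 0.05, diabetes without pargyline had 4 genes higher and 1 lower, beside 10.8% of all probes, and with pargyline 1 higher and 2 lower, beside 7.46%. Pargyline had 4 higher and 0 lower in non-diabetic mice, beside 4.43%, and 2 higher and 2 lower in diabetic mice, beside 13.3%. The interaction had 1 higher and 2 lower, beside 7.03%. The 9 of 52 for averaged diabetes stand beside 11.4%. Whether any of these shares differs from its background was not tested.

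Of the 10 tested subunits and regulators, 3 were higher and 7 lower, with a median of −0.06. The highest change was that of *Cited2*, which competes with the factors for their coactivators (0.48, SE 0.19, adjusted p = 0.384). The lowest was that of *Hif1an*, the asparaginyl hydroxylase that blocks coactivator binding (−0.65, SE 0.87), whose arrays within C alone ran from 5.33 to 8.52 and whose change was −0.17 without D replicate 1.

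Glycolysis targets had positive averaged changes in 10 of 14, beside 48.5% of all tested probes, with a median of 0.07. This did not hold in both pargyline states, with 10 of 14 and a median of 0.12 without pargyline but 5 of 14 and −0.09 with it. *Pdk1*, a mitochondrial kinase that inhibits pyruvate dehydrogenase, read 10.84, 10.93 and 10.83 in C, 11.01, 10.69 and 10.48 in C + P, 11.53, 11.31 and 11.24 in D, and 10.83, 11.47 and 11.68 in D + P. Its averaged change was 0.55 (SE 0.16, adjusted p = 0.249), with all D arrays above all C arrays. At the other end was *Pfkfb4*, which sets the level of a glycolytic activator, at −0.33 (SE 0.20, adjusted p = 0.558), or −0.18 without D replicate 1. *Ldha*, *Gapdh* and *Pgk1*, named after their values were seen, gave 0.01, 0.01 and −0.12.

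Among the 8 mitochondria and survival targets, 6 were higher and the median was 0.23. *Bnip3*, a mitophagy receptor, had the highest change, 0.40 (SE 0.16, adjusted p = 0.404), and *Higd1a*, a respiratory chain protein, the lowest, −0.40 (SE 0.29, adjusted p = 0.629), or −0.16 without D + P replicate 3. The 4 genes with an unadjusted p under 0.05 were *Bnip3*, *Bnip3l*, *Cox4i2* and *Mxi1*, all higher, that is 4 of 8 beside 11.4% of all probes, and the last 3 were named after their values were seen. In the separate states the list had 1 of 8 without pargyline, beside 10.8%, and 0 of 8 with it, beside 7.46%.

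In the vessel, blood and iron list 5 of 9 were higher, with a median of 0.15. *Epo*, the red cell hormone, was well above background on 2 of the 3 D arrays and on 0 arrays of the other groups. In measured means D exceeded C by 1.43 (SE 0.26, adjusted p = 0.215), with all D arrays above all C arrays. No fold is given, as 0 C arrays were well above background. The lowest change was that of *Hmox1*, which breaks down heme, at −0.19 (SE 0.14, adjusted p = 0.638), or −0.11 without C replicate 1. *Kdr*, the main receptor of VEGF-A, was looked at after its values were seen. It read 12.63, 12.53 and 12.59 in C, 12.46, 12.98 and 12.73 in C + P, 11.98, 12.47 and 12.18 in D, and 13.05, 12.86 and 12.96 in D + P, so that all D arrays lay below all C arrays and all D + P arrays above all D arrays. D + P exceeded D by 0.75 (SE 0.18, adjusted p = 0.176).

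Matrix, pH and other targets were lower in 8 of 11, with a median of −0.12. *P4ha2*, a collagen prolyl hydroxylase, came nearest to the threshold of all 52 genes. It read 11.11, 11.33 and 11.19 in C, 11.37, 11.36 and 11.33 in C + P, 10.59, 10.47 and 10.66 in D, and 10.91, 10.41 and 10.48 in D + P, with all diabetic arrays below all non-diabetic ones. Its averaged change was −0.70 (SE 0.11), a fold of 0.62, with an adjusted p of 0.057, and it passed under 5 of 12 other settings and without 1 D + P array. *Vldlr*, a lipoprotein receptor, was the highest of the list at 0.10 (SE 0.15), or −0.007 without C replicate 1.

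**Figure D5:**
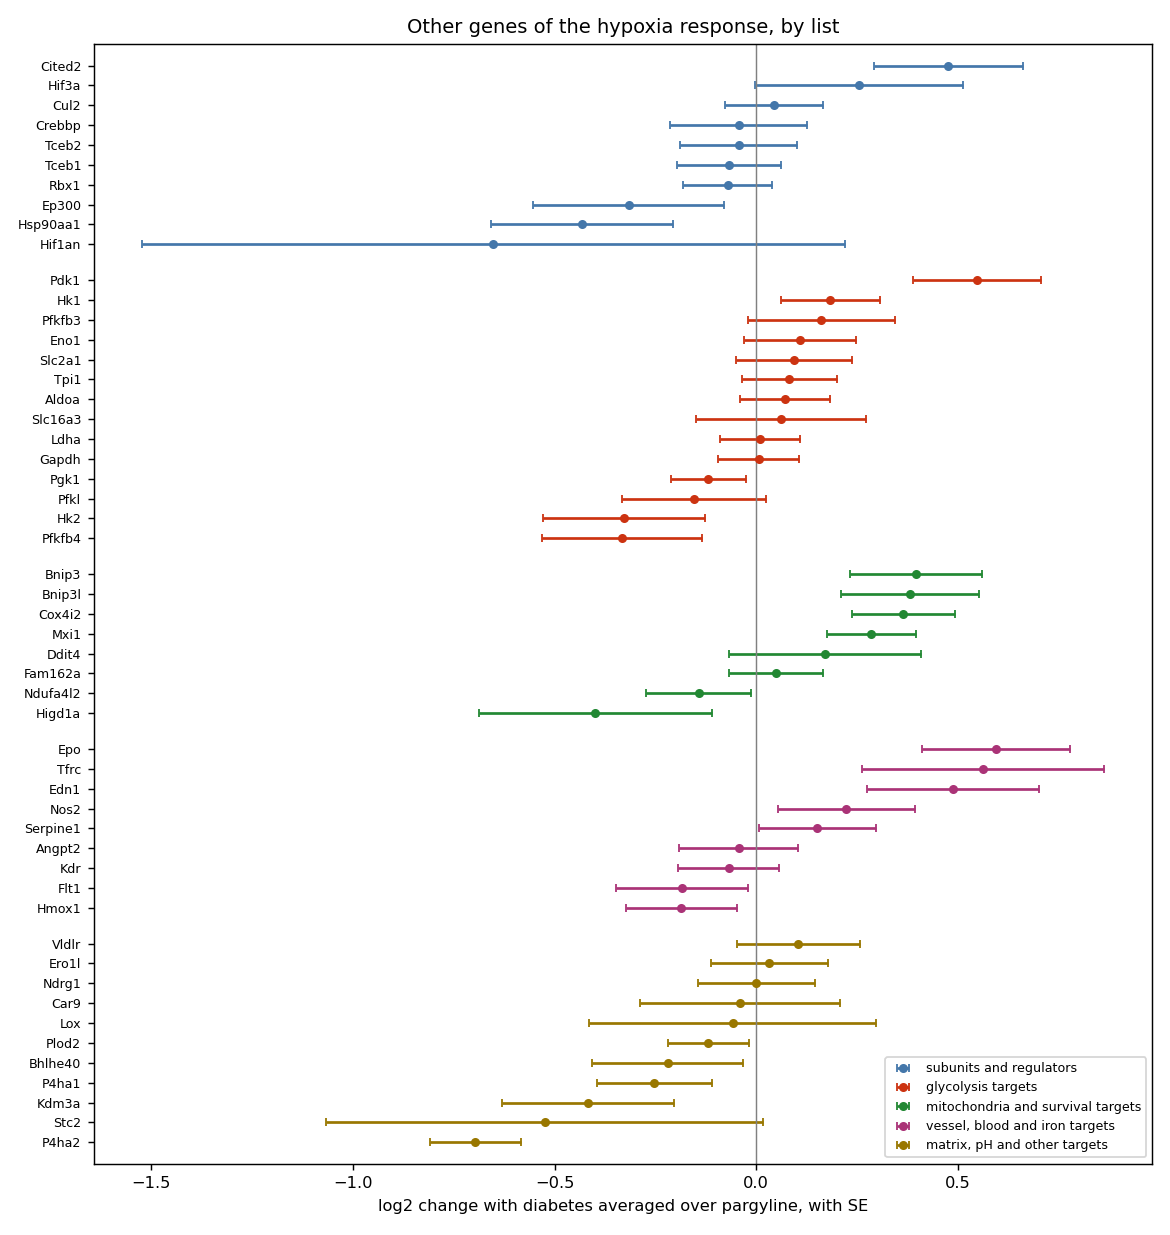
Log2 change with diabetes averaged over pargyline, with its SE, for the 52 tested genes of 5 lists of the hypoxia response, ordered within each list. *P4ha2* lies at −0.70 at the bottom, *Pdk1* lies at 0.55 at the top of its list, the point for *Epo* rests on values well above background on 2 arrays only, and 27 of the 52 genes lie above 0.

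Markers of cell types were set beside these values, since in whole tissue fewer cells of a type and less RNA per cell cannot be told apart. The summed linear signal of the 6 endothelial markers ran from 6103 to 8265 in C, 6901 to 9123 in C + P, 7108 to 7661 in D and 7349 to 9649 in D + P, and 4 of the 6 were higher in D than in C while *Vegfa* was lower. The 5 macrophage and leukocyte markers were all lower in D than in C, with sums of 7446 to 9140 in C, 7283 to 7812 in C + P, 5455 to 6589 in D and 5132 to 7009 in D + P, so that the sums of the diabetic and non-diabetic groups did not overlap. None of these 5 passed in diabetes averaged over pargyline (lowest adjusted p = 0.111). Lower in D than in C were also 2 of 5 fibroblast, 3 of 4 smooth muscle cell and pericyte, 1 of 3 red cell and 3 of 6 cardiomyocyte markers. None of these passed for averaged diabetes either. Their lowest adjusted p was 0.141, at the cardiomyocyte marker *Ryr2* (averaged change −0.99). The part of any of these lists in the *Hif1a* and *Vegfa* differences was not tested.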

How the data were processed

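RNA of 12 mouse hearts, 3 per group, was labelled with Cy3 by the authors (200 ng per sample) and hybridized to single-colour Agilent mouse arrays. The deposited scanner files give spot intensity on a linear scale, background-subtracted by Feature Extraction (version 12.0.0.7 in the file headers). A series table of intensity, quantile normalized by the authors, served as an alternative. Groups follow the sample labels.

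Scanner intensity was log2 transformed and quantile normalized over non-control spots, with outlier-flagged spots set to missing and repeated spots averaged. Probes with a positive and significant signal in 50% or more of each group's arrays were tested with limma 3.58.1 in R 4.3.3 (data.table, version 1.17.8, for reading), 1 mean per group, residual degrees of freedom 8 and 2.62 prior degrees of freedom. The threshold was 0.05 for two-sided p-values adjusted by Benjamini-Hochberg across the 30859 probes. The fit was tested on simulated data. The number of arrays limits the precision.

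All member probes are named, and the brightest tested probe stands for any other gene. Other pathway genes are named where they passed in any comparison or had the highest or lowest averaged change of their list, and 7 more (*Ldha*, *Gapdh*, *Pgk1*, *Bnip3l*, *Cox4i2*, *Mxi1* and *Kdr*) after their values were seen. The members, lists and tests were chosen with earlier results of these data known. Alternatives were scaling to the 75th percentile, normexp background (offset 50), the series table, other filters, array weights, a trend prior, the methods' t-test, gene means, blocks and leaving out each array. Group means of all members and pathway genes without each array were added after the data were seen. Replicate numbers are shared by groups only as names: deviations of same-numbered arrays correlated at a mean of 0.01 over 18 pairs (−0.20 to 0.20).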

Additional observations from a re-analysis of the deposited data

Results flagged for a closer look

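*Egln3* was set apart because its arrays moved in opposite directions with diabetes in both pargyline states. All 3 D arrays lay above all 3 C arrays, and all 3 D + P arrays lay below all 3 C + P arrays. The interaction was −1.25 on the log2 scale, and it did not pass the adjusted threshold (adjusted p = 0.565 from limma). Under the 11 other settings that could be fitted it ranged from −1.31 to −0.94, and without single arrays from −1.39 to −1.06, without passing in any. C and D share a slide, and C + P and D + P share another.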

How the results depend on the processing

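None of the 18 member probes passed in any of the 6 comparisons under the settings tried, except with array weights, where 1 (the brightest *Hif1a* probe) passed in D against C and 1 (the same) in diabetes averaged over pargyline. Of the 52 other pathway genes, 0 passed for averaged diabetes in the main setting, 1 with the filter on probes well above background, 1 with values not positive and significant set to missing, 1 with the trend and robust prior, 1 with the slide as a block and 2, *P4ha2* among them, with array weights. Without single arrays the count ran from 0 to 1, with 1 (*P4ha2*, adjusted p = 0.0231) without D + P replicate 1. With the replicate number as a block (replicate block), 0 members and 0 other pathway genes passed.

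The averaged changes of 7 members, of which none passed, turned their sign under some setting or without single arrays. *Egln1* was 0.053 with the 75th percentile scaling and 0.0013 with array weights, *Egln2* 0.035 and *Adm* −0.055 with normexp, *Arnt* −0.068 with the mean of its probes, and *Ankrd37* 0.20 with array weights. *Epas1* was −0.00099 in the authors' series table, −0.0028 with array weights and −0.040 when the column on the slide was a block. Without single arrays the changes ran from −0.065 to 0.10 for *Epas1*, −0.086 to 0.060 for *Egln1*, −0.32 to 0.11 for *Vhl* and −0.21 to 0.13 for *Ankrd37*. The averaged *Hif1a* difference against the dim probe ran from −0.095 to 0.30, and with 2 of 12 arrays well above background at that probe no direction is read from it. The cause was not tested. The methods' t-test and fits of only the compared groups are not defined for averaged diabetes or the interaction. With 3 arrays a group, and 4 of 18 member probes not well above background on all arrays, small changes at dim probes are the least certain.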
